A study of Mus musculus with 2 samples.

Results

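The genes described here are 39 members of the machinery that burns fatty acids in liver, out of 32285 genes counted in single liver cells. They were chosen by symbol, for their known roles in fatty acid oxidation, ketone body formation and peroxisomes, and each symbol matched 1 row of the count table. Liver cells came from mice fed HFCFD, a fatty, cholesterol-rich and fructose-rich diet (labelled 40%), for 2 weeks. The labels name 1 liver with knockout of Cebpa (Cebp KO) and 1 wild-type liver (Cebp WT), and their age is not stated. In the study, only males were used, knockouts were bred from Cebpa fl/fl mice with cre driven by the albumin promoter, which is active in hepatocytes, and a constitutive and a tamoxifen-inducible line existed. The constitutive line is the one the study names for the feeding time used here, and the labels do not name the line of the knockout sample.

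Long-chain fatty acids are taken up, bound by FABP1 and activated to acyl-CoA. The carnitine shuttle carries them into mitochondria, where beta-oxidation shortens them to acetyl-CoA, and in hepatocytes much of that acetyl-CoA leaves as ketone bodies. Peroxisomes shorten very long chains first and make hydrogen peroxide, which catalase removes. PPARA, a nuclear receptor that binds fatty acids, switches on much of this program in fasting, through direct repeats of the hexamer AGGTCA spaced by 1 base.

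The labels do not tie the barcode suffix of a cell, 1 or 2, to a sample. The libraries are therefore named by suffix and compared with no genotype assigned. The library with suffix 1 held 17313 barcodes and 60048646 unique molecular identifiers (UMIs, each marking 1 cDNA molecule), and the library with suffix 2 held 15003 barcodes and 52355243 UMIs. The median mitochondrial share of UMIs was 4.07% and 41.3%, and 81 barcodes occurred in both. Deep hepatocyte-like cells, with at least 5000 UMIs and at most 25% mitochondrial UMIs, were picked by 10 hepatocyte markers that include no member. There were 422 such cells with suffix 1 (median 25913.5 UMIs) and 406 with suffix 2 (median 12414 UMIs), of which 4 and 2 carried a shared barcode. In these cells Alb, the albumin gene, was at 40420 and 42802 counts per 1000000 UMIs (CPM). Cebpa, the targeted gene, was at 1.23 CPM (13 UMIs) with suffix 1 and at 109 CPM (631 UMIs) with suffix 2. Whether the counted 3' tags lie inside the deleted part is not stated in the sources used. Markers of other cells were low: the 10 Kupffer cell markers summed to 52.3 and 60.1 CPM, with Timd4 at 0 with suffix 2, and the 7 T cell markers to 9.14 and 6.91 CPM. Erythroid markers summed to 351.9 and 153 CPM, cholangiocyte markers to 34.5 and 21.6 CPM, stellate cell markers to 8.29 and 13.8 CPM, B cell markers to 25.4 and 4.84 CPM, neutrophil markers to 11.5 and 3.80 CPM and dendritic cell markers to 1.98 and 7.94 CPM, with intervals that did not overlap between the libraries. The part of these in the results was not tested. Periportal markers summed to 5069 CPM (5026–5112) and 4869 CPM (4813–4926), with intervals that did not overlap either. Pericentral markers summed to 391 CPM in each library.

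The letters of the PPARA-type repeat were looked for in RefSeq promoters, since PPARA itself is a member and the others include its textbook targets. RefSeq (GRCm38.p6) gave promoters of 300 bases, from 250 before the start of the gene to 50 after, for 32 of the 39 members, 35 promoters in all. AGGTCANAGGTCA with at most 2 mismatches, on either strand, was found in 7 of the 35 promoters (20%) and in 3.86% of all 32851 promoters. Each of the 7 matches is shown in capitals with 5 bases on either side, 5′ to 3′ in the direction of the gene.
Fabp1, chr6:71199807-71199829, plus strand: atcacTGACCTATGGCCTatatc
Slc25a20, chr9:108662137-108662159, plus strand: aatgtAGGTGAAAGGTCGgcgga
Echs1, chr7:140116487-140116509, minus strand: cgctcAGGTCACGGGTCCacccc
Etfa, chr9:55512303-55512325, minus strand: cacccTTACCTTTGCCCTactcc
Acot4, chr12:84038361-84038383, plus strand: aagcaTGACCTTTGGCCGgtctg
Acot12, chr13:91741406-91741428, plus strand: gacccTGACCTCTCACCTcctaa
Cat, chr2:103485340-103485362, minus strand: ctcagAGGTCAGAGAACAccagc
Those of Fabp1 and Acot12 had 1 mismatch and the others 2. A match in letters is not a binding site. TTGCNNAA, the letters that C/EBP proteins prefer, was searched on both strands with no mismatch. It was found in 5 of the 35 promoters (14.3%) and in 10.8% of all promoters, in Abcd3, Acads, Fabp1, Acaa1a and Acot1. Fabp1 was the member with matches to both, and no match of one overlapped the other there. The stretches before the start of 3 genes are given next, with the matches of both searches in capitals. Fabp1 gave most of the UMIs of the whole group, and Acot1 was higher in Kupffer-like than in hepatocyte-like cells. Among members past the filter, Acaa1b had the ratio between the libraries farthest from 1 at the mitochondrial limit of 25%.
Fabp1, chr6:71199629-71199826, plus strand: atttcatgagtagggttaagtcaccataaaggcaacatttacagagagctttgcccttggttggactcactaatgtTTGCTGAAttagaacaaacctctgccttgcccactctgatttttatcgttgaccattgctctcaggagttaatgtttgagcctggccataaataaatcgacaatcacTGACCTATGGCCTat
Acaa1b, chr9:119157094-119157343, minus strand: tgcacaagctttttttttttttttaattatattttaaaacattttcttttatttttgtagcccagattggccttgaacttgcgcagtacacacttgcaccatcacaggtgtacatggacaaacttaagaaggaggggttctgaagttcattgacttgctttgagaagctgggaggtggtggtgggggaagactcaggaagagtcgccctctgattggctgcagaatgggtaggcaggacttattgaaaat
Acot1, chr12:84009252-84009489, plus strand: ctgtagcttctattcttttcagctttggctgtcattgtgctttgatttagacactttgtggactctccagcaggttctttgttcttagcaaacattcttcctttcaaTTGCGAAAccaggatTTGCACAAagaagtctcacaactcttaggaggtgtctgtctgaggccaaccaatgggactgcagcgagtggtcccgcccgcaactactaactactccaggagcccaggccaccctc
The Acaa1b stretch held neither. Acot1 had 2 matches of TTGCNNAA close to each other.

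All 39 genes were detected in deep hepatocyte-like cells of both libraries. Together they made up 27138 CPM with suffix 1 (exact Poisson 95% interval 27039 to 27238) and 26575 CPM with suffix 2 (26442–26708). These intervals, and all others below, cover counting error only. With 1 library per suffix there was no replicate, and no test was made between the libraries. One gene carried most of this sum. Fabp1, the fatty acid binding protein of liver, gave 68.4% and 64.5% of the members' UMIs, at 18566 and 17140 CPM. Cat, the catalase gene, was at 1871 and 2058 CPM, which was 21.8% of the UMIs of the rest in each library. Without Fabp1, the other 38 members summed to 8573 CPM (8517–8629) with suffix 1 and 9435 CPM (9356–9514) with suffix 2. The sum with Fabp1 was higher with suffix 1 and the sum without it was higher with suffix 2. The order of the whole sum turned at a mitochondrial limit of 10%, at 34152 and 36229 CPM, and as a mean over cells, at 27546 and 27705 CPM. It also turned, at 31007 and 32650 CPM, when the mean counts of a T-like cell were subtracted for each hepatocyte-like cell. T-like cells, picked by T cell markers, stood in for free RNA, but their counts also hold RNA of their own. A UMI is counted about once per molecule from its 3' end, but the sources used do not say whether intronic reads were counted, so levels of different genes are set side by side and not ranked as numbers of mRNA molecules.

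**Figure D1:**
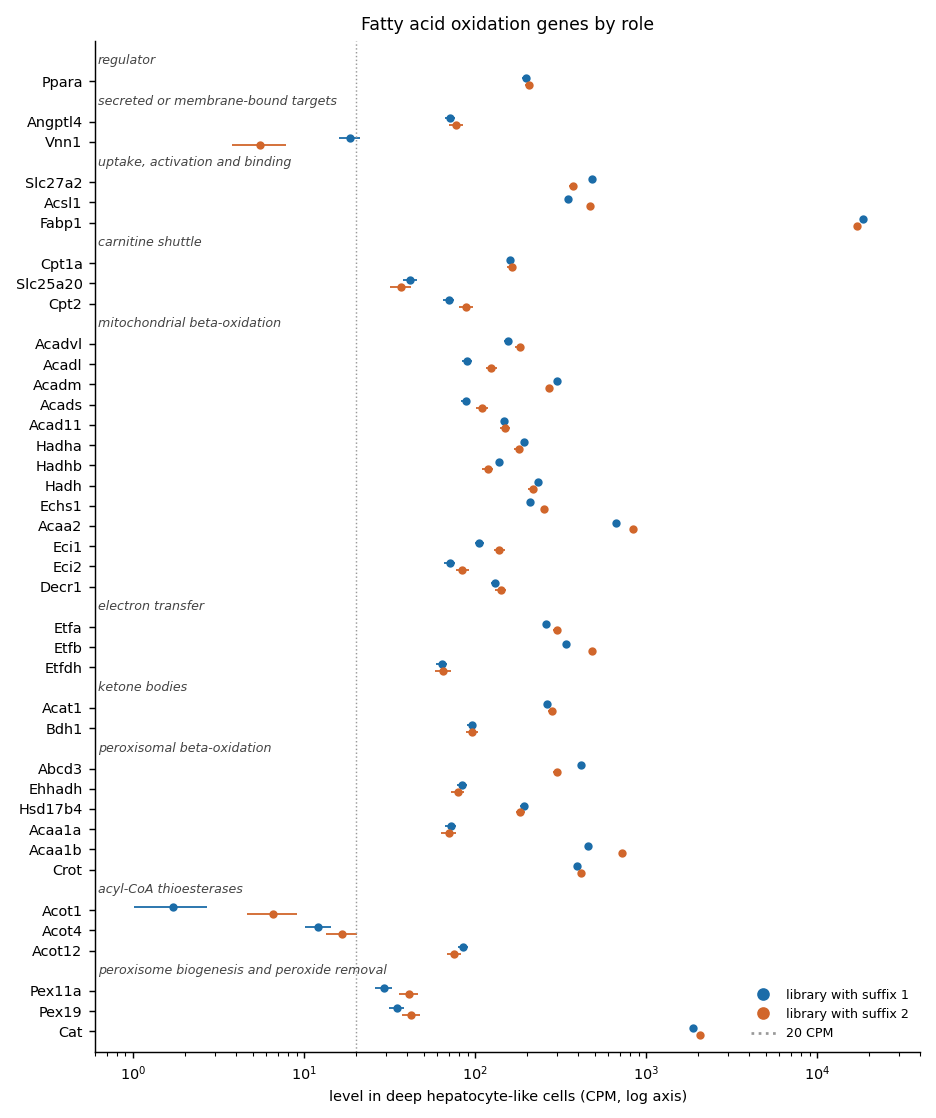
Level of each of the 39 members in deep hepatocyte-like cells in CPM on a log axis, grouped by role, with exact Poisson 95% intervals, blue for suffix 1 and orange for suffix 2. Most members lie to the right of 20 CPM with the libraries side by side. Fabp1 lies farthest right in both, at 18566 and 17140 CPM, and Vnn1, Acot1 and Acot4 lie left of the dotted line at 20 CPM.

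Between the libraries the members were close. Of the 39, 36 reached a mean of 20 CPM over both libraries. None of them was 2-fold higher with suffix 1, where 2.04% of the 4404 genes past the same filter were, and none was 2-fold higher with suffix 2, where 1.82% were. At these shares, 36 genes would hold fewer than 1 on either side, so the 0 members called are near the background. The median log2 ratio of the members, suffix 1 over suffix 2, was -0.09, against 0.01 over all genes. The median size of the log2 ratio was 0.18 for members and 0.22 for all genes, and 23 of the 36 members (63.9%) lay within 1.2-fold, as did 57.8% of all genes. Past 1.5-fold there was 1 member (2.78%), Acaa1b, against 12.4% of all genes, which were not matched to the members in level. The counting interval of the ratio left out 1 for 22 members, 6 higher with suffix 1, where 27.3% of all genes were, and 16 higher with suffix 2, where 26% of all genes were. These values turned on the mitochondrial limit: at 10%, which left 39 cells with suffix 1, 3 members (Slc27a2, Cpt1a and Slc25a20) were 2-fold higher with suffix 1, as were 19.9% of all genes, and the median log2 ratio was 0.0494 against 0.198 over all genes. With no limit, the median was 0.349 against 0.354, and 84.4% of all genes were higher with suffix 1, where 51% were at 25%. Of the 22 members whose interval left out 1, the direction turned at 10% for 4 (Acsl1, Fabp1, Eci2 and Crot). With no limit it turned for 11, which were Cpt2, Acadvl, Acads, Echs1, Acaa2, Eci1, Eci2, Etfa, Crot, Pex19 and Cat. The direction also turned for Crot at a limit of 50%, and for Acadvl in cells with no UMI of another class's markers.

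**Figure D2:**
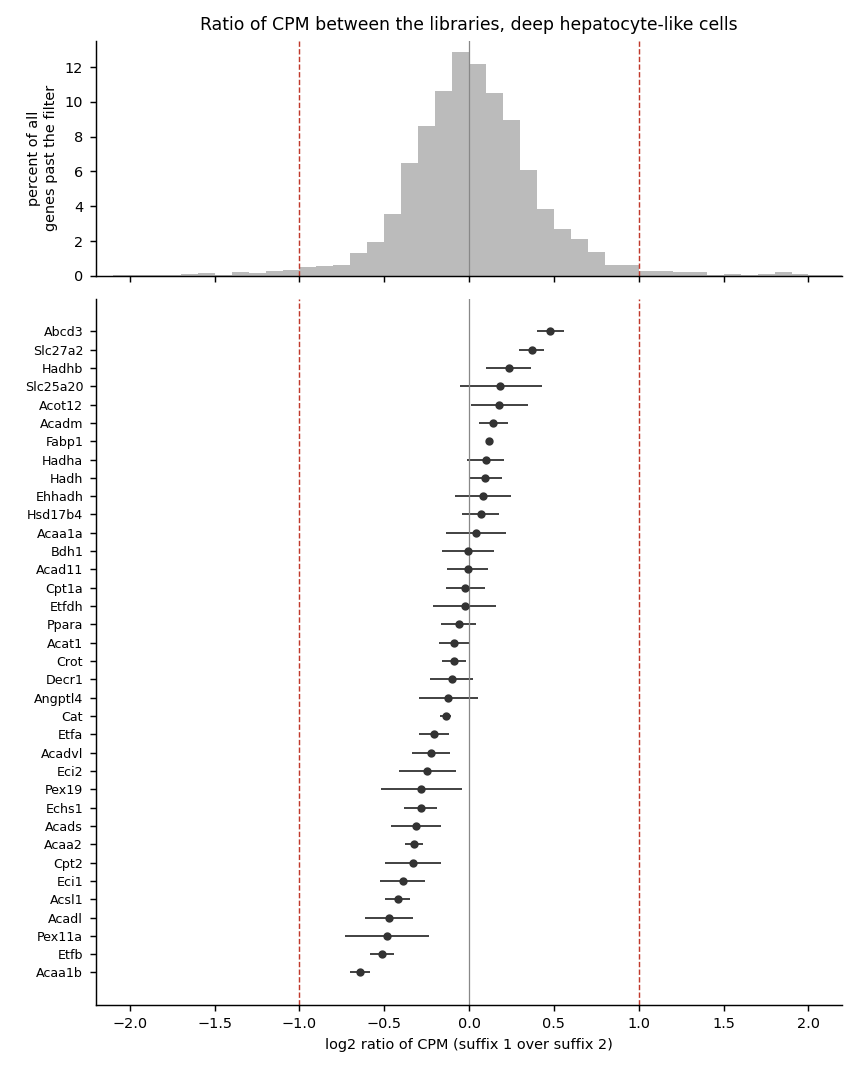
Log2 ratio of CPM, suffix 1 over suffix 2, in deep hepatocyte-like cells: above, the percent of all 4404 genes past the filter in bins of 0.1, and below, each of the 36 members past it with its 95% counting interval. Dashed red lines mark 2-fold. All 36 members lie between the lines, from Acaa1b at -0.64 to Abcd3 at 0.48.

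Ppara, the regulator, lies on chromosome 15 at 85734983 to 85802819 (plus strand, GRCm38). It was at 197 CPM (188–205) and 205 CPM (194–217), a ratio of 0.958 (0.892–1.03), so its intervals overlapped. At a mitochondrial limit of 10% it was at 203 and 106 CPM, a ratio of 1.92, and with no limit at 162 and 127 CPM, a ratio of 1.28. Angptl4, a secreted inhibitor of lipoprotein lipase and a PPARA target, was at 71.2 and 77.5 CPM, also with overlapping intervals. Its log2 ratio of -0.12 became 0.72 at 10%. Vnn1, a pantetheinase of the cell surface and another PPARA target, had a mean below the 20 CPM filter. It was at 18.4 CPM (15.9–21.1, 195 UMIs) with suffix 1 and 5.53 CPM (3.78–7.80, 32 UMIs) with suffix 2, a ratio of 3.33 (2.28–4.996). The log2 ratio of Vnn1 was 1.73, against 2.80 at a mitochondrial limit of 10% and 0.77, under 2-fold, with no limit. In shallow droplets with the hepatocyte markers (under 1500 UMIs), Vnn1 was at 16.8 CPM (12.9–21.4, 64 UMIs) and 14.9 CPM (8.67–23.8, 17 UMIs), with overlapping intervals.

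The uptake and activation genes were not alike. Slc27a2, a very long-chain acyl-CoA synthetase, was at 478 CPM (465–491) with suffix 1 and 370.1 CPM (355–386) with suffix 2. Acsl1, the main long-chain acyl-CoA synthetase of liver, was at 348 CPM (337–360) and 466 CPM (449–484). Their ratios of 1.29 and 0.747 lay on opposite sides of 1 and no interval overlapped that of the other library. At a mitochondrial limit of 10% both lay on the same side, with log2 ratios of 1.02 for Slc27a2 and 0.12 for Acsl1. Fabp1, on chromosome 6 at 71199827 to 71205023, had a ratio of 1.08 (1.08–1.09).

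The carnitine shuttle summed to 272 and 288 CPM. Cpt1a, the outer-membrane transferase that sets the pace of entry, was at 160.3 CPM (153–168) and 163 CPM (153–174). Slc25a20, the carrier through the inner membrane, was at 41.6 CPM (37.8–45.6) and 36.6 CPM (31.9–41.9). The intervals of both overlapped between the libraries. At a mitochondrial limit of 10% the log2 ratio of Cpt1a moved from -0.02 to 1.07 and that of Slc25a20 from 0.18 to 1.60, both past 2-fold. Cpt2, which returns the acyl group to CoA inside, was at 70.0 CPM (65.1–75.2) with suffix 1 and 88.3 CPM (80.8–96.2) with suffix 2, a ratio of 0.793. Its log2 ratio of -0.33 became 0.083 with no mitochondrial limit.

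The 13 genes of mitochondrial beta-oxidation summed to 2523 CPM (2493–2553) and 2800 CPM (2757–2843), a ratio of 0.901 (0.884–0.919). Their median log2 ratio was -0.22, with 4 of 13 above 0 and 9 below, where 51% of all genes were above 0 and 49% below. With no mitochondrial limit this turned: 12 of the 13 were above 0, as were 84.4% of all genes, and the sums were 1839 and 1490 CPM. The acyl-CoA dehydrogenases, which take the first step at different chain lengths, were not alike. Acadl, for long chains, was at 89.2 CPM (83.6–95.01) and 124 CPM (115–133), and Acads, for short chains, at 87.8 and 109 CPM. Acadm, for medium chains, was at 299 and 271 CPM, the other way round. Acadvl was at 155 and 181 CPM, and Acad11 at 148 and 149 CPM. The log2 ratio of Acad11, -0.00829, became 0.61 at a limit of 10%. Hadha and Hadhb, the subunits of the trifunctional protein, start 86 bases from each other on chromosome 5, on opposite strands. Their ratios were 1.07 (0.992–1.15) for Hadha, which holds 1, and 1.18 (1.07–1.29) for Hadhb. Acaa2, the mitochondrial thiolase, had the most UMIs of the 13, at 668 CPM (652–684) and 836 CPM (813–860.2). The isomerases Eci1 and Eci2 had ratios of 0.762 and 0.843, and the reductase Decr1, which also serves unsaturated chains, 0.931. Echs1, the hydratase, had a ratio of 0.820 and Hadh, the dehydrogenase of the third step, 1.07.

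Electron transfer genes summed to 661 CPM (645–676) and 846 CPM (823–870.1), a ratio of 0.781 (0.753–0.810). The ratio of the sums was 0.665 at a mitochondrial limit of 10% and 1.09 with no limit, so its direction depended on the limit. Most of it was Etfb, the beta subunit of the flavoprotein that takes electrons from the dehydrogenases. Etfb was at 338 CPM (327–349) with suffix 1 and 482 CPM (464–500.4) with suffix 2, a log2 ratio of -0.51, which was -0.01 with no limit. Etfa, the alpha subunit, was at 259 and 299 CPM, with a ratio of 0.866 (0.815–0.920). Etfdh, which passes the electrons on to ubiquinone, was at 63.6 and 64.8 CPM with overlapping intervals.

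Both ketone body genes among the members had close levels with the suffixes. Acat1, which joins acetyl-CoA units, was at 263 and 279 CPM and Bdh1, which makes beta-hydroxybutyrate, at 94.99 and 95.5 CPM. The ratios of both had intervals that held 1. Their sums of 358 and 375 CPM became 516 and 453 CPM at a mitochondrial limit of 10% and 256 and 194 CPM with no limit.

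Peroxisomal beta-oxidation held both ends of the range at the mitochondrial limit of 25%, but not at 10%, where Etfb was lowest at a log2 ratio of -0.92 and Slc25a20 highest at 1.60. Acaa1b, a peroxisomal thiolase on chromosome 9 at 119148023 to 119157093 (minus strand), was at 459 CPM (446–472) with suffix 1 and 716 CPM (694–738) with suffix 2. Its ratio of 0.641 (0.615–0.668) was the lowest of the 36 members at that limit of 25%, and its log2 ratio of -0.64 became -0.78 at 10% and, with no limit, -0.20, where Acsl1 was lower at -0.35. Acaa1a, a close copy of it on the same chromosome, was at 71.8 and 69.8 CPM, a ratio of 1.03 (0.911–1.16). Reads shared by the copies could be split or dropped in counting, so their values are uncertain. Abcd3, a transporter of the peroxisomal membrane on chromosome 3 at 121758774 to 121815302 (minus strand), was at 417 CPM (405–430) with suffix 1 and 299.6 CPM (286–314) with suffix 2. Its ratio of 1.39 (1.32–1.47) was the highest of the 36 at 25%, and its log2 ratio of 0.48 became 0.85 at 10% and 0.70 with no limit. Ehhadh and Hsd17b4, the bifunctional enzymes, had ratios of 1.06 and 1.05. The log2 ratio of Ehhadh turned from 0.081 to -0.72 in cells with no UMI of another class's markers, 27 of them with suffix 1. Crot, which makes carnitine esters of shortened chains, had a ratio of 0.9401.

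Among the acyl-CoA thioesterases, Acot12 was at 84.6 and 74.8 CPM. Acot4 was below the filter at 12.1 and 16.6 CPM. Its log2 ratio moved from -0.46 to -2.04, past 2-fold, in cells with no UMI of another class's markers. Acot1, the cytosolic enzyme for long chains, was also below the filter, with 18 UMIs (1.70 CPM, 1.01 to 2.68) and 38 UMIs (6.56 CPM, 4.64 to 9.01). It has close copies beside it on chromosome 12, so its counts carry the same doubt as those of Acaa1a. Pex11a, a peroxin of peroxisome division, was at 29.1 and 40.8 CPM, a ratio of 0.715 (0.601–0.850), and Pex19, the chaperone for peroxisomal membrane proteins, at 34.7 and 42.1 CPM. In cells with no UMI of another class's markers, the log2 ratio of Pex19 moved from -0.28 to -1.13. Cat, on chromosome 2 at 103453849 to 103485160 (minus strand), had a ratio of 0.909 (0.889–0.930), a log2 ratio of -0.14, which became 0.34 with no mitochondrial limit.

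Of 88 other genes of these pathways, 57 passed the filter. Of these, 1 was 2-fold higher with suffix 2, where 1.82% of all genes were, and 1 with suffix 1, where 2.04% were, so both counts are near the background. The gene higher with suffix 2 was Pecr, a peroxisomal enoyl-CoA reductase, at 63.2 CPM (671 UMIs) with suffix 1 and 205 CPM (1184 UMIs) with suffix 2, a ratio of 0.309 (0.281–0.340). The gene higher with suffix 1 was Acacb, whose product makes the malonyl-CoA that inhibits carnitine transferase. Acacb was at 63.3 CPM (672 UMIs) and 27.1 CPM (157 UMIs), a ratio of 2.34 (1.96–2.80). The median size of the log2 ratio of these 57 genes was 0.31, against 0.22 over all genes. Of them, 43.9% lay within 1.2-fold, against 57.8% of all genes, and 10.5% lay past 1.5-fold, against 12.4%.

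Fabp1 levels spread widely from cell to cell. Each deep hepatocyte-like cell was thinned at random to 5000 UMIs. The other 38 members then gave a median of 44 UMIs a cell with suffix 1, from 20 to 85, and 47 with suffix 2, from 26 to 118. Fabp1 had medians of 86.5 and 89 UMIs and ran from 7 to 300 and from 7 to 328. Cat had a median of 10 UMIs in each library and ran from 1 to 31 in each. The coefficient of variation left after the share that counting alone gives was taken off was 0.497 and 0.507 for Fabp1 and 0.333 and 0.317 for Cat. For the sum of the 38 members, in which separate variation of the genes averages out, it was 0.157 and 0.199.

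Deep and shallow droplets were compared next. Shallow droplets with the hepatocyte markers, at 500 UMIs or more but under 1500 and with no UMI of another class's markers, numbered 3853 and 1256. Of 36 members past the filter, 1 was 2-fold lower there than in deep cells in both libraries, Ppara, where 9.15% of 4086 genes were, and 0 were 2-fold higher, where 1.71% were. Members were thus called no more often than all genes. Ppara was at 65.8 CPM (57.9–74.5) and 50.8 CPM (38.6–65.6) in shallow droplets, 0.335 and 0.247 times its deep level. Not past 2-fold in both libraries, and picked after their values were seen, were Etfb at 2.93 and 1.93 times its deep level, Eci1 at 2.79 and 1.98 times, Acaa1b at 2.69 and 1.86 times, Acadl at 2.57 and 1.70 times and Fabp1 at 1.61 and 1.33 times. Others were higher too, among them Acaa2, at 1521 and 1322 CPM in shallow droplets against 668 and 836 CPM in deep cells. Eci2 was at 149 and 145 CPM against 70.8 and 83.9 CPM. Lower in shallow droplets of both libraries, also under 2-fold in both, were Cpt1a at 0.504 and 0.645 times its deep level, Acsl1 at 0.5002 and 0.843 times, Acad11 at 0.611 and 0.566 times, Acot12 at 0.608 and 0.667 times and Cat at 0.683 and 0.595 times.

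**Figure D3:**
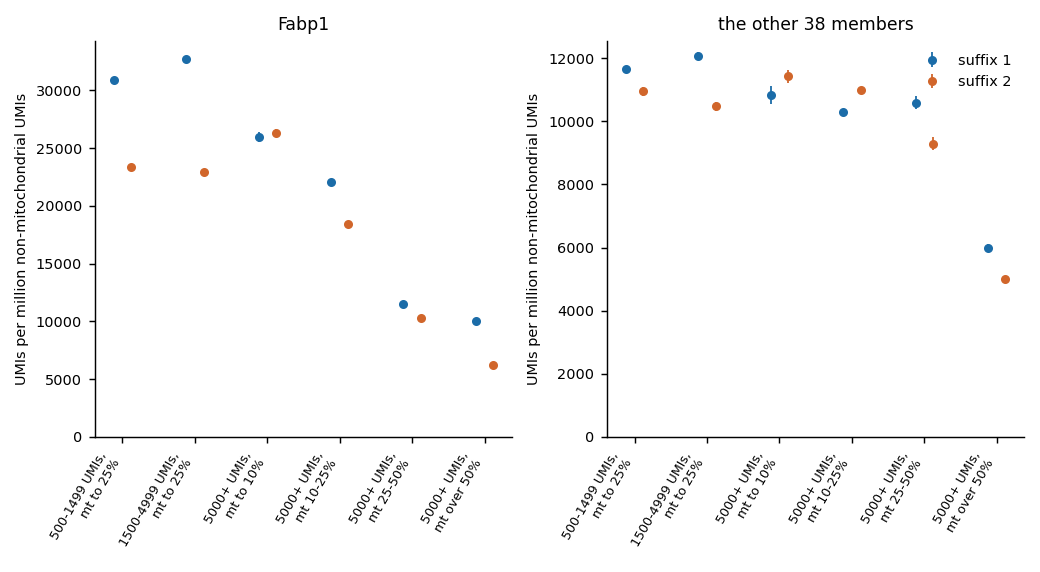
UMIs of Fabp1 (left) and of the other 38 members (right) per 1000000 non-mitochondrial UMIs, in droplets with the hepatocyte markers split by depth and by mitochondrial (mt) share, with 95% counting intervals, blue for suffix 1 and orange for suffix 2. Among droplets of 5000 UMIs or more, Fabp1 falls from 25944 and 26351 at a mitochondrial share to 10% to 10016 and 6194 over 50%. The other members stay between 9288 and 11422 up to a share of 50% and lie at 5979 and 5013 above it.

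The mitochondrial share moved with these levels and differed between the libraries. Per 1000000 non-mitochondrial UMIs, Fabp1 stood at 25944 and 26351 in the 39 and 118 deep droplets with a share to 10%, at 22102 and 18414 from 10% to 25%, and at 11540 and 10318 from 25% to 50%. The other 38 members stood at 10838 and 11422, then 10276 and 10981, then 10592 and 9288. Over 50% they stood at 5979 and 5013, while Alb was at 90853 and 94569 there, against 48799 and 54205 from 10% to 25%. The sum of the other 38 members was higher with suffix 2 in both deep strata to 25%, and higher with suffix 1 in both deep strata above it.

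In comparison with T-like cells, a class that should lack liver-specific genes, most members were higher in hepatocyte-like cells. The filter here was a mean of 20 CPM over both classes of a library, so a gene could pass through either class alone. With suffix 1, 27 of 35 members past the filter (77.1%) were at least 2-fold higher in hepatocyte-like cells, against 19.5% of all genes. With suffix 2 they were 32 of 36 (88.9%), against 20.4%. Cpt2, Acot12 and Pex19, among those called in both libraries, lay below 20 CPM in T-like cells. They passed through hepatocyte-like cells, where they were high, so the shares rest in part on the filter. No member past the filter was 2-fold lower, where 45.2% and 45.8% of all genes were. The median log2 ratio of members was 1.48 and 1.91, against -0.77 over all genes in each library. Ppara was 7.53 and 14.5 times higher in hepatocyte-like cells, Cat 7.04 and 8.81 times, and Fabp1 4.36 and 6.09 times. Slc25a20, Acadl, Hadhb and Acaa1a stayed under 2-fold in both libraries. For Acadl the ratio was 0.971 and 1.44, with 91.9 and 86.0 CPM in T-like cells.

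RNA set free by broken hepatocytes enters other droplets, and T-like cells held 4263 and 2814 CPM of Fabp1. Hepatocyte markers were used to estimate its amount in each class: 1 source keeps its genes in 1 ratio, so the UMIs of a member that free RNA would bring were computed from the marker UMIs of the class and the proportions in deep hepatocyte-like cells. A member was called above it where it reached 2 times that number in both libraries and the lower bound of its Poisson interval was higher. The filter was a mean of 20 CPM over the class and hepatocyte-like cells, so a gene could pass through either. In Kupffer-like cells 10 of 37 members were called, against 82.7% of all genes. Acot1, 1 of the 10, was below 20 CPM in hepatocyte-like cells and passed through its Kupffer level, so its call is no separate support. In T-like cells 4 of 36 members were called, against 77.8%, and in B-like cells 3 of 36, against 72%. In endothelial-like cells 3 of 36 were called, against 78.7%. In erythroid cells, where haemoglobin took most UMIs, 0 of 36 were, against 3.37% of all genes. The call was repeated with the profile of shallow droplets. Called under both profiles were Cpt1a, Slc25a20, Hadhb, Hsd17b4, Acot1 and Pex19 in Kupffer-like cells, Slc25a20 and Hadhb in T-like cells, Acadl and Pex19 in endothelial-like cells, and Etfdh in B-like cells. Fabp1 and Cat were called in none of these classes.

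**Figure D4:**
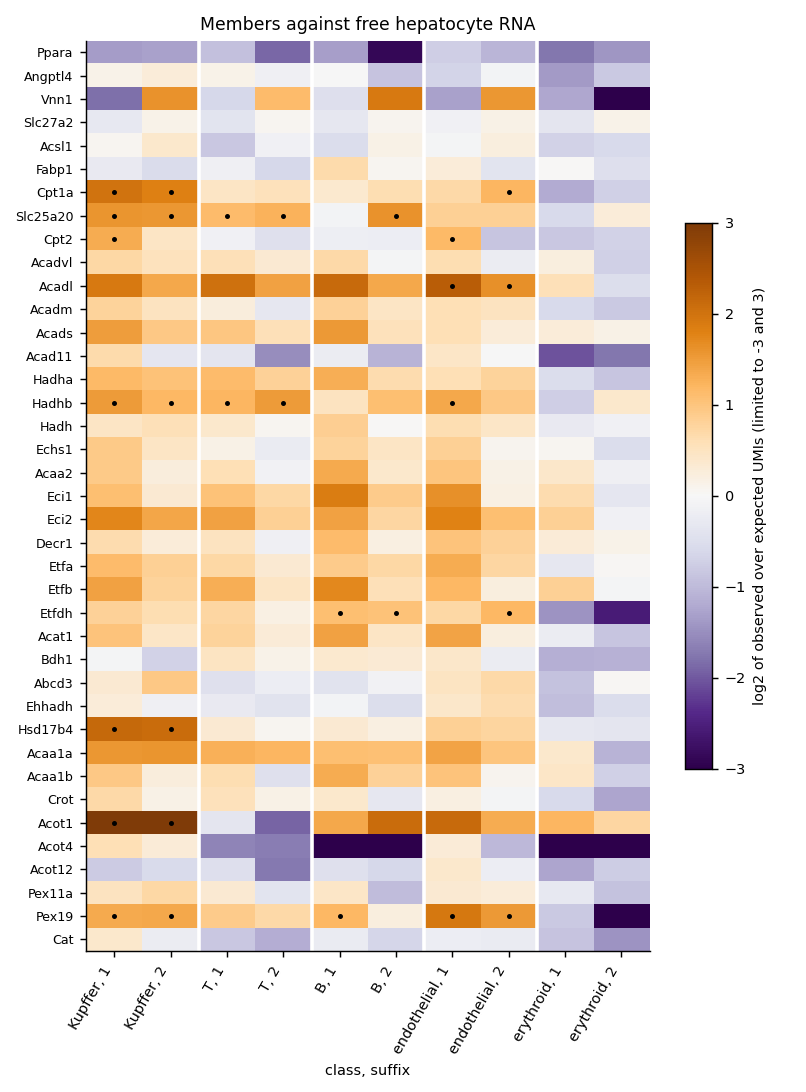
Log2 of the observed UMIs of each member over those expected from free hepatocyte RNA (deep profile), for 5 classes and both suffixes, limited to -3 and 3; black points mark members called in that library under both profiles. Orange is above free RNA and purple below. The Kupffer columns carry 6 rows with a point in both libraries, with Acot1 the darkest.

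Acot1 was higher in Kupffer-like than in hepatocyte-like cells. It was at 47.3 CPM (38.2–58.0, 93 UMIs in 232 cells) with suffix 1 and 61.2 CPM (52.0–71.6, 156 UMIs in 368 cells) with suffix 2. This was 27.9 times (16.7–49.1) and 9.33 times (6.51–13.7) its level in hepatocyte-like cells, which rests on 18 and 38 UMIs. Close copies lie beside Acot1 on chromosome 12, so which copy was counted is uncertain. Free RNA would give 0.333 and 1.39 CPM by the deep profile and 1.71 and 4.16 CPM by the shallow one. T-like cells held 1 UMI in each library, and NK-like cells 0. Cholangiocyte-like cells held 11 and 10 UMIs in 21 and 14 cells, or 40.8 CPM (20.4–72.9) and 77.4 CPM (37.1–142), with intervals that overlapped those of Kupffer-like cells. The order of the next classes could not be read from 0 to 6 UMIs each.

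Hsd17b4 in Kupffer-like cells came close to hepatocytes, at 167 CPM (149.8–187) and 164 CPM (149–181) against 192 and 183 CPM, and at 61.0 and 48.3 CPM in T-like cells. Free RNA would give 37.6 and 38.7 CPM. Cpt1a was at 127 CPM (112–144) and 121 CPM (107–135) in Kupffer-like cells, 0.794 and 0.740 times its hepatocyte level. Acadl was highest in cholangiocyte-like cells, at 229.7 CPM (176–295) and 263 CPM (182–368), with dendritic-like cells next at 178 CPM (143–218) and 181 CPM (150.1–217). The intervals of these classes overlapped, and both lay above hepatocyte-like cells. Eci2, an isomerase for unsaturated chains, was at 204 and 147 CPM in cholangiocyte-like cells, 2.88 times (2.15–3.79) and 1.75 times (1.05–2.77) its hepatocyte level. Acsl1 was at 251 CPM (195–317, 100 cells) and 291 CPM (186–433, 32 cells) in neutrophil-like cells, where free RNA would give 139 and 196 CPM by the deep profile and 65.6 and 149 CPM by the shallow one. It was 1.81 and 1.48 times free RNA by the deep profile, and 3.82 and 1.96 times by the shallow one. Its intervals there overlapped those of stellate-like cells, at 147 CPM (70.3–269.7) and 106 CPM (45.8–209). These class and gene pairs were picked after their values were seen, and the cholangiocyte values rest on 21 and 14 cells.

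**Figure D5:**
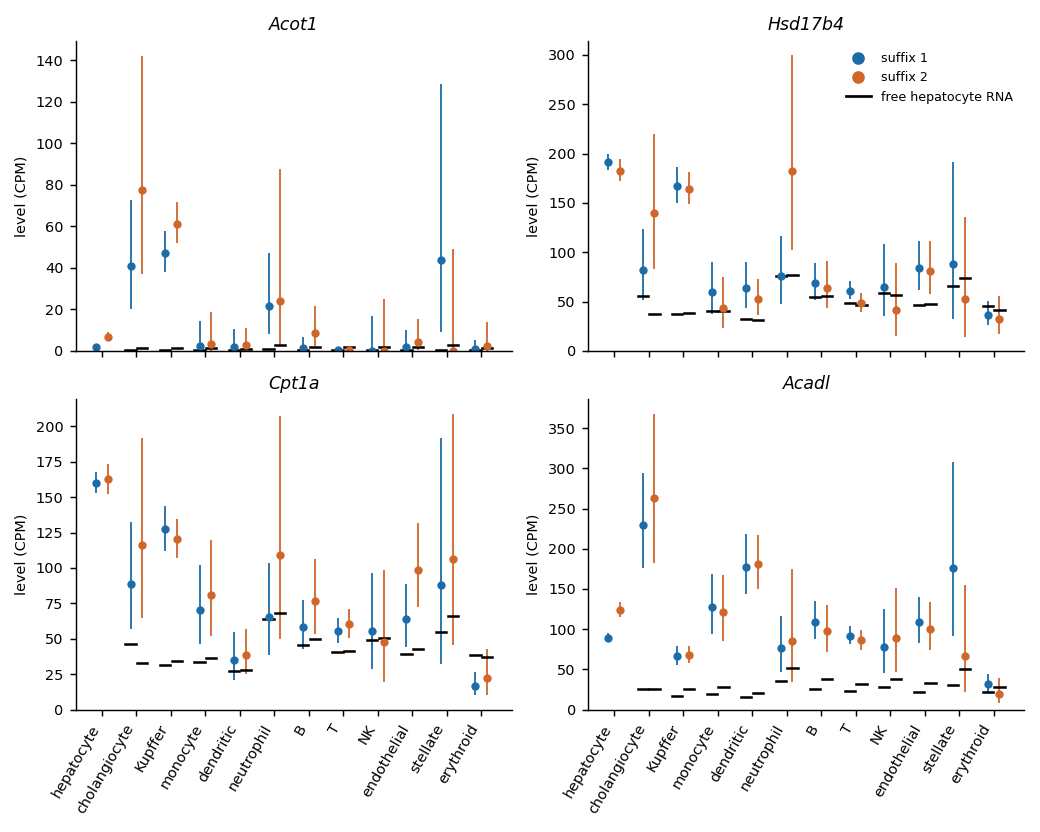
Level in CPM of Acot1, Hsd17b4, Cpt1a and Acadl in 12 marker-gated classes, with 95% counting intervals, blue for suffix 1 and orange for suffix 2; black bars show what free hepatocyte RNA would give (deep profile). Acot1 lies at 47.3 and 61.2 CPM in Kupffer-like cells and below 7 CPM in hepatocyte-like cells. Acadl lies highest in cholangiocyte-like and dendritic-like cells.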

How the data were processed

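The authors deposited 1 matrix of whole-number UMI counts per gene and barcode, with no normalization. The submitters' processing notes name Cell Ranger 7.1.0, STAR 2.7.2a, bcl2fastq 2.20.0 and the build mm10. The sources used here are silent on cell calling, intronic reads and depth equalization on joining. Cells were kept at 500 UMIs, 200 genes and 25% mitochondrial UMIs. Deep hepatocyte-like cells had 5000 UMIs, 8 of 10 markers, markers at 5% of non-mitochondrial UMIs and fewer than 3 markers of any other class. Other classes had 3 markers of their own and fewer than 3 of another (NK markers allowed in T), hepatocyte markers under 5% and erythroid markers under 10%. Erythroid cells had 10% erythroid markers. With mixed markers, 127 and 161 deep cells were left out, and 54 and 87 lay near the 5% limit (4% to 6%). No doublet caller was run, so doublets with fewer foreign markers remain. Plasma cell genes (Jchain) led the B class with its own markers.

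UMIs were summed per class and suffix and divided by the total (CPM). Levels carry exact Poisson 95% intervals and ratios exact conditional (Clopper-Pearson) intervals, for counting error only. Cells were not used as replicates. The gate limits were set after seeing the data, and the members, lists and rules were chosen with earlier results of these data known. Named were all 39 members, Cebpa, Alb and other pathway genes past 2-fold; further genes that the rule names are not reported here. Positions were taken from GENCODE M21 by Ensembl ID (99.6% found). No member overlapped another counted gene on its strand. Protein sequences were not used here. Scripts were tested on simulated data. Python 3.11.15, numpy 2.4.6, scipy 1.17.1, pandas 2.3.3 and matplotlib 3.10.9 were used.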

Additional observations from a re-analysis of the deposited data

How the results depend on the processing

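No paired analysis was possible because there was 1 library per suffix and the labels give no replicate numbers. Members 2-fold apart stayed at 0 on both sides at a mitochondrial limit of 50% or none, and at UMI minimums of 2000 and 10000. They also stayed at 0 without mitochondrial genes in the CPM, as a mean over cells and after centring the median ratio of all genes. The same held after subtraction of the mean counts of a T-like cell, which hold T cell RNA besides free RNA. Of all genes, 2.2% and 1.72% were higher with suffix 1 and suffix 2 at 50%, 5.48% and 1.71% with no limit, 2.27% and 1.78% at 2000 UMIs, 2.18% and 1.66% at 10000, 2.25% and 1.66% without mitochondrial genes, 2.34% and 2.03% as a mean over cells, 6.94% and 3.18% after subtraction, and 2.04% and 1.84% after centring. A mitochondrial limit of 10%, which leaves 39 cells with suffix 1, gave 3 higher with suffix 1 (19.9% of all genes were). Cells with no UMI of another class's markers, 27 with suffix 1, gave 1 higher with suffix 2 (4.34% of all genes were). A filter at 5 CPM gave 1 higher with suffix 1 (2.53%), a filter at 1 UMI gave 1 and 1 (15.8% and 12.9%), and a fold of 1.5 gave 1 higher with suffix 2 (5.2%). The median log2 ratio of -0.09 became 0.0494 at a limit of 10%, where that of all genes was 0.20, and 0.35 with no limit, where that of all genes was also 0.35. It ranged from -0.19 to -0.01 under the others. The sums of 27138 and 26575 CPM moved past their counting intervals under every alternative: 34152 and 36229 at 10%, 25520 and 23888 at 50%, 19188 and 14189 with no limit, 28975 and 27461 at 2000 UMIs, 27028 and 25859 at 10000, 32636 and 31198 without mitochondrial genes, 27546 and 27705 as a mean over cells, 29467 and 27527 without foreign markers, and 31007 and 32650 after subtraction. So which library had the higher sum changed at 10%, as a mean over cells and after subtraction. Above free RNA at a fold of 1.5 there were 8 members in B-like cells (75.7% of all genes were), 8 in T-like (81.8%), 10 in endothelial-like (81.6%) and 14 in Kupffer-like cells (86.4%). With the shallow profile 7 were called in Kupffer-like cells (83.3%). Calls against T-like cells numbered 26 to 36 with suffix 1 (19.4% to 22.3% of all genes), and 32 or 33 with suffix 2 (19.9% to 22%). The causes were not tested. Depth limits classes under 50 cells and genes under 20 CPM.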
